A study of Mus musculus with 68 samples.

Results

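The carboxylesterase 1 cluster was read as the 7 genes Ces1a, Ces1b, Ces1c, Ces1d, Ces1e, Ces1f and Ces1g, taken by symbol from 23893 gene entries in an RNA-seq table of mouse lung. All 7 genes were found, and all 7 passed the filter on low counts that left 17377 genes for testing. The lungs came from wild-type male mice of the inbred strain C57BL/6J and of CAST/EiJ, an inbred strain derived from wild Mus musculus castaneus, both bought from The Jackson Laboratory. Mice of each strain were held in clean air or inhaled 1,3-butadiene (BD), a gas whose epoxide metabolites damage DNA, for 6 h a day on weekdays over 2 weeks. Polyadenylated RNA was sequenced from 5 clean-air and 6 BD libraries of C57BL/6J and from 7 clean-air and 6 BD libraries of CAST/EiJ.

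Carboxylesterases are serine hydrolases of the endoplasmic reticulum that cleave esters, thioesters and amides in drugs, environmental chemicals and stored lipids. In mice the type 1 enzymes arose by tandem duplication, and most carry a tail that keeps them in the endoplasmic reticulum. Ces1d and Ces1f are triacylglycerol hydrolases, Ces1g limits lipid output and lipid storage in the liver, and Ces1e is egasyn, which anchors β-glucuronidase (Gusb) in the endoplasmic reticulum. Ces1c is the plasma esterase that the mouse liver secretes, and Ces1a and Ces1b are less studied copies.

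The 7 genes stood side by side on mouse chromosome 8, in the order Ces1a, Ces1b, Ces1c, Ces1d, Ces1e, Ces1f and Ces1g in RefSeq assembly GRCm38.p6, with the pseudogene Gm45910 between Ces1c and Ces1d. Ces1h, a protein-coding gene, came next after Ces1g and was not among the 7 genes read here. RefSeq start regions were at hand for 5 of the 7 genes, Ces1a, Ces1b, Ces1c, Ces1e and Ces1g, and the 250 bases before each start are printed because they show how alike the copies are. Each is written from 5′ to 3′ on the strand of the gene, with the letters TTATGTAA in capitals.
Ces1a (chr8:93048193-93048442, minus strand): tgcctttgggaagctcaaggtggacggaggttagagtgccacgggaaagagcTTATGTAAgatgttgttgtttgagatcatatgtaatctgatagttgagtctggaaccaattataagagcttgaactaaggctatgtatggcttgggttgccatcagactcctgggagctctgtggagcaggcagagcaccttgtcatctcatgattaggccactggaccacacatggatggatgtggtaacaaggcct
Ces1b (chr8:93079941-93080190, minus strand): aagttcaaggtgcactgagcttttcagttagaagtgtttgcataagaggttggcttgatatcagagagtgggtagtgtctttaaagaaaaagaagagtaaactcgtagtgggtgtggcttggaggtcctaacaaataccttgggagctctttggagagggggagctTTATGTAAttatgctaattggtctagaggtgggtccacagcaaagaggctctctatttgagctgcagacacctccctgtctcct
Ces1c (chr8:93131284-93131533, minus strand): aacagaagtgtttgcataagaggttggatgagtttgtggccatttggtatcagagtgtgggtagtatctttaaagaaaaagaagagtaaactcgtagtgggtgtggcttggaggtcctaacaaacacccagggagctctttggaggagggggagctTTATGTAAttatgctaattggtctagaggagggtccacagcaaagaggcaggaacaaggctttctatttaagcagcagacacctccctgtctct
Ces1e (chr8:93229620-93229869, minus strand): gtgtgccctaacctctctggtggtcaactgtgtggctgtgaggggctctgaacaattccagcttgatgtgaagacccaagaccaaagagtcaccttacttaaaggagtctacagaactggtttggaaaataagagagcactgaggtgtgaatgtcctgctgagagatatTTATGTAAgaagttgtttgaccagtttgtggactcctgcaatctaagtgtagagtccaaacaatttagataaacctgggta
Ces1g (chr8:93337210-93337459, minus strand): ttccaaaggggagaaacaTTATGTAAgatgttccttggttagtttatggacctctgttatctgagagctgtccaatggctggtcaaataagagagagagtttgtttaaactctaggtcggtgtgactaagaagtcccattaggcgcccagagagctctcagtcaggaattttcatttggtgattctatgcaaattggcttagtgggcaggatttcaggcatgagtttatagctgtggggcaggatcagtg

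In these stretches Ces1b and Ces1c were the closest pair, with the same base in 213 of 277 aligned columns (76.9%) and a longest shared run of 58 bases. The first 50 transcribed bases of this pair shared the run catgtggctccatgctctggtctggg, which is 26 bases long. The other 9 pairs matched in 48.5% to 57.1% of columns, with longest runs of 8 to 14 bases. TTATGTAA, the letters of the D-box bound by circadian PAR-bZIP factors, was present once before each of the 5 genes. It lay 198, 84, 94, 81 and 232 bases before the start of Ces1a, Ces1b, Ces1c, Ces1e and Ces1g. These letters were chosen after the sequences had been seen, and the 250 bases before 0.819% of 32851 listed starts held them on either strand (TTATGTAA or TTACATAA). A further start listed for Ces1b lies upstream, and its window of the same length ends inside the same copy of these letters. TGACNNNGC, the letters of the antioxidant response element, and AGGTCA, the nuclear receptor half-site, were found in 10.2% and 14% of these windows and in none of the 5 genes. TATAAA was found in 12.4% of windows and among the 5 genes in that of Ces1g, where it lies on the opposite strand and reads TTTATA. All of these letters were searched on either strand.

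The 24 libraries held 10597990 to 50001571 counts, and levels are given as CPM (counts per 1e+06 of the scaled library), with the standard deviation (SD) over libraries. The library labelled CAST/EiJ BD replicate 5 (library 8 by its title) went against its strain label across the transcriptome in an earlier analysis of these files, and it was kept out of means and tests, which used 23 libraries. Its Ces1 values lay within the range of the C57BL/6J BD libraries for 7 of 7 genes and within that of the other 5 CAST/EiJ BD libraries for 3 of 7. In that library Ces1e stood at 14.8 CPM, Ces1g at 48.4 CPM and Ces1d at 1014.2 CPM. Titles numbered over 100 belonged to 5 of the 7 CAST/EiJ and 1 of the 5 C57BL/6J clean-air libraries and to no BD library, so this number series cannot be told apart from clean air except within those groups. Nothing in the labels says that libraries came from separate animals, so p-values measure the spread between libraries. In whole lung, fewer cells of a type and less RNA per cell cannot be told apart.

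**Figure D1:**
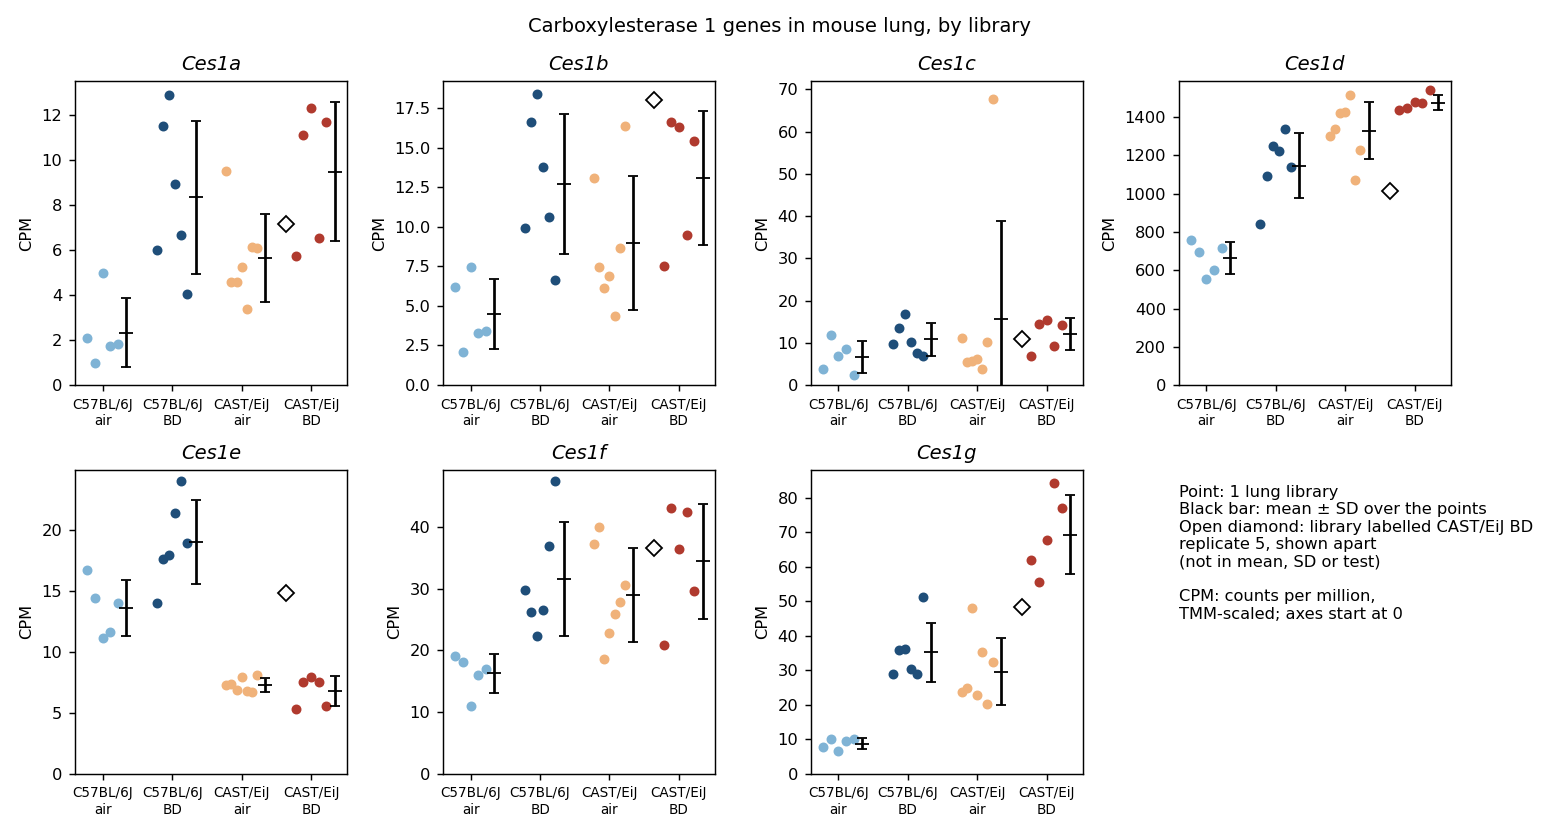
Level of each Ces1 gene in every lung library (y axis, CPM from 0, own scale per gene), with group mean ± SD as black bars and the library labelled CAST/EiJ BD replicate 5 as an open diamond. In Ces1g the 5 clean-air C57BL/6J libraries lie at 6.52 to 10 CPM and the 5 CAST/EiJ BD libraries at 55.6 to 84.3 CPM, whereas in Ces1e both CAST/EiJ groups lie below both C57BL/6J groups.

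Most reads of the cluster belonged to Ces1d. It held 88.4% to 95.2% of the counts of the 7 genes in a library (median 92.1%), a share not corrected for transcript length. Ces1f and Ces1g held medians of 2.23% and 2.27%, and Ces1a, Ces1b, Ces1c and Ces1e each held a median under 1%. Ces1a was counted with as few as 13 reads in a library and Ces1d with as few as 6051, so the precision of the genes differed.

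To determine how BD changed the cluster in C57BL/6J, the 6 exposed libraries were set against the 5 held in clean air. Ces1a, Ces1b, Ces1d, Ces1e, Ces1f and Ces1g rose, which is 6 of 7 genes, whereas 4.20% of all genes tested rose and 6.49% fell, 10.7% together (edgeR quasi-likelihood test, adjusted p under 0.05 over all genes). The median log2 fold was 0.95 over the 7 genes and 0.00 over all genes. Ranges of CPM did not overlap between the groups for 3 of 7 genes, Ces1d, Ces1f and Ces1g, and lay higher under BD in this way for 3.79% of all genes and lower for 4.13%.

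Ces1g had the highest fold. It was measured at 7.65, 10, 6.52, 9.50 and 10 CPM in the 5 clean-air libraries and at 28.8 to 51.3 CPM (median 33.1) in the 6 BD libraries. Every BD library lay above every clean-air library. Its mean went from 8.75 ± 1.58 CPM (SD, n = 5) to 35.2 ± 8.55 CPM (SD, n = 6), a 4.01-fold rise with a log2 fold of 2.0 ± 0.21 (standard error, SE) and an edgeR adjusted p of 5.36e-06. The highest BD value, 51.3 CPM in replicate 6, stood apart from the next at 36.2 CPM, and without that library the gene still rose.

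Ces1d, the triacylglycerol hydrolase that carries most reads, was measured at 758.7, 694.8, 555.8, 599.2 and 714.7 CPM in clean air and at 843.5 to 1338.4 CPM (median 1181.9) under BD. The ranges did not overlap. The mean was 664.6 ± 84.2 CPM (SD, n = 5) without BD and 1147.4 ± 172.0 CPM (SD, n = 6) with it, a 1.73-fold rise (log2 fold 0.79 ± 0.10 SE, edgeR adjusted p = 5.5e-05). Ces1f, the second triacylglycerol hydrolase, was measured at 19.1, 18.1, 11, 16.1 and 17 CPM in clean air and at 22.4 to 47.5 CPM (median 28.1) under BD. These ranges did not overlap either, and the rise was 1.93-fold (log2 fold 0.95 ± 0.22 SE, edgeR adjusted p = 0.00828).

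Ces1e, which encodes egasyn, was measured at 16.7, 14.4, 11.1, 11.6 and 14 CPM in clean air and at 14 to 24.0 CPM (median 18.4) under BD. The groups overlapped, with 5 of 6 BD libraries above the highest clean-air library. The rise of 1.39-fold (log2 fold 0.48 ± 0.13 SE, edgeR adjusted p = 0.0204) did not pass with the library labelled CAST/EiJ BD replicate 5 in the fit (0.125). It also did not pass without clean-air replicate 3 (0.0725) or 4 (0.0632), or without BD replicate 4 (0.0525) or 5 (0.0617). Gusb, the enzyme that egasyn anchors, had a log2 fold of -0.05 ± 0.07 (SE; edgeR adjusted p = 0.727).

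Ces1a rose 3.68-fold (log2 fold 1.88 ± 0.36 SE, edgeR adjusted p = 0.0022). It was measured at 2.10, 0.974, 4.96, 1.73 and 1.83 CPM in clean air and at 4.06 to 12.9 CPM (median 7.80) under BD, and 5 of 6 BD libraries lay above the highest clean-air library. Ces1b rose 2.82-fold (log2 fold 1.49 ± 0.36 SE, edgeR adjusted p = 0.0103). It was measured at 6.19, 2.10, 7.44, 3.28 and 3.44 CPM in clean air and at 6.64 to 18.4 CPM (median 12.2) under BD, again with 5 of 6 above the highest clean-air value. Ces1c, the plasma esterase, had values of 3.72, 11.9, 6.89, 8.63 and 2.44 CPM in clean air and of 6.84 to 16.9 CPM (median 10) under BD. These groups overlapped widely, and Ces1c did not pass (log2 fold 0.71 ± 0.65 SE, edgeR adjusted p = 0.563).

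The summed level of 9 alveolar type 2 cell markers spanned 17174.6–20466.7 CPM in clean-air C57BL/6J libraries and 20383.1–24405.6 CPM under BD, ranges that overlapped, with no marker at 0. Of the 9, Sftpc rose (log2 fold 0.43), Etv5 fell (-0.38) and 7 did not pass, with a median of 0.11, where 10.7% of all genes changed. The sums of 10 alveolar fibroblast markers spanned 8235.3–9110.0 and 8015.1–8942.7 CPM. The part of these cells in the rise of the cluster was not tested.

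To determine how BD changed the cluster in CAST/EiJ, the 5 exposed libraries were set against the 7 held in clean air. Ces1g was the gene of the cluster that rose, 1 of 7, whereas 3.86% of all genes tested rose and 3.37% fell, 7.22% together. The median log2 fold was 0.25 over the 7 genes and -0.02 over all genes.

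Ces1g was measured at 20.1 to 48.0 CPM (median 24.9) in the 7 clean-air libraries and at 61.9, 55.6, 67.7, 84.3 and 77.2 CPM in the 5 BD libraries. The groups did not overlap, which held in this direction for 1.23% of all genes and in the other for 0.840%. The mean was 29.6 ± 9.79 CPM (SD, n = 7) without BD and 69.3 ± 11.5 CPM (SD, n = 5) with it, a 2.34-fold rise (log2 fold 1.23 ± 0.19 SE, edgeR adjusted p = 0.000817). The clean-air libraries numbered under 100, replicates 6 and 7, held 20.1 and 32.5 CPM. Without the clean-air libraries numbered over 100 the log2 fold of Ces1g was 1.40 (edgeR adjusted p = 0.00524), and with library 8 it was 1.15 (0.00143).

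Ces1d was measured at 1070.6 to 1517.5 CPM (median 1338.3) in clean air and at 1435.4, 1447.4, 1482.1, 1475.8 and 1540.0 CPM under BD. The BD libraries lay close together, with an SD of 40.6 CPM around 1476.1 CPM (n = 5), and 1 of 5 lay above the highest clean-air library. The log2 fold was 0.15 ± 0.10 (SE; edgeR adjusted p = 0.319). The lowest clean-air values, 1070.6 and 1226.3 CPM, belonged to the libraries numbered under 100, and against these alone the log2 fold was 0.36 (edgeR adjusted p = 0.192).

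Ces1a had a log2 fold of 0.76 ± 0.32 (SE; edgeR adjusted p = 0.124), where clean-air libraries averaged 5.64 ± 1.95 CPM (SD, n = 7) and exposed libraries 9.48 ± 3.10 CPM (SD, n = 5). Ces1b had a log2 fold of 0.55 (edgeR adjusted p = 0.274), Ces1f of 0.25 (0.441) and Ces1e of -0.09 (0.674). Ces1e averaged 7.29 ± 0.55 CPM (SD, n = 7) in the clean-air libraries and 6.78 ± 1.23 CPM (SD, n = 5) in the exposed ones. None of these genes passed, and the ranges of each overlapped between the groups. Club cell markers fell in the same comparison in 4 of 8 cases, among them Scgb1a1, where 3.37% of all genes fell. Their summed level was 11631.3–16147.7 CPM in clean air and 7341.6–11315.9 CPM under BD. The part of these cells in the Ces1 levels was not tested.

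Whether the BD response of the cluster differed between strains was tested as the ratio of the BD fold in CAST/EiJ to that in C57BL/6J. Ces1d differed, 1 of 7 genes, whereas 3.82% of all genes differed in this direction, 5.62% in the other and 9.44% in either. Its log2 ratio was -0.64 ± 0.14 (SE; edgeR adjusted p = 0.0157), that is a smaller BD fold in CAST/EiJ. It did not pass when libraries numbered over 100 were left out (-0.48, edgeR adjusted p = 0.124) or when the number series was a term in the fit (-0.49, 0.0731), fits in which 1.8% and 0.483% of all genes passed. Ces1g had a log2 ratio of -0.78 ± 0.28 (SE) with an edgeR adjusted p of 0.0731, and Ces1e one of -0.57 ± 0.19 (SE) with 0.0511. Ces1a stood at -1.12 ± 0.48 (SE; 0.125), Ces1f at -0.70 ± 0.30 (SE; 0.131) and Ces1b at -0.95 ± 0.48 (SE; 0.197). All 7 log2 ratios were below 0, although that of Ces1c, -1.08, was 0.07 without clean-air CAST/EiJ replicate 7. The median log2 ratio was -0.78 over the 7 genes and -0.02 over all genes. The 7 ratios come from the same libraries and may share reads, so they are not 7 separate results. At an unadjusted p under 0.05 the count was 5 of 7, where 29.3% of all genes passed.

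To determine how the strains differed before exposure, clean-air CAST/EiJ was compared with clean-air C57BL/6J. Ces1a, Ces1b, Ces1d, Ces1f and Ces1g were higher in CAST/EiJ and Ces1e was lower, in a comparison in which 60.4% of all genes differed, 29.4% higher and 31.0% lower. The count of 6 of 7 genes is read beside that share. Build mm9 is the only one named for the libraries of both strains. Whether differences of the CAST/EiJ genome from that build moved the counts compared between strains, here or under BD, was not tested. The median log2 fold was 1.00 over the 7 genes and 0.00 over all genes.

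Ces1g was 3.38-fold higher in CAST/EiJ, with means of 29.6 and 8.75 CPM (edgeR adjusted p = 1.99e-07). Ces1d was 2.0-fold higher, with a mean in CAST/EiJ of 1329.0 ± 148.4 CPM (SD, n = 7; edgeR adjusted p = 1.75e-08). In both genes every CAST/EiJ library lay above every C57BL/6J library, as was so for 14.7% of all genes. Ces1f was 1.78-fold higher (edgeR adjusted p = 0.00214) and Ces1a 2.48-fold higher (0.00271), each with overlapping ranges. Ces1b was 1.99-fold higher (edgeR adjusted p = 0.0182) and did not pass without clean-air C57BL/6J replicate 2 (0.0538).

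Ces1e went the other way. It was measured at 6.72 to 8.06 CPM (median 7.30) in the 7 CAST/EiJ libraries and at 11.1 to 16.7 CPM in the 5 C57BL/6J libraries. It was 1.87-fold lower in CAST/EiJ, with no overlap (log2 fold -0.90 ± 0.13 SE, edgeR adjusted p = 2.25e-06). Ranges lay lower without overlap for 17.2% of all genes.

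Under BD the strains were compared again, with 5 CAST/EiJ and 6 C57BL/6J libraries. Ces1d and Ces1g were higher and Ces1e was lower in CAST/EiJ, 3 of 7 genes, where 42.7% of all genes differed, 20.4% higher and 22.3% lower. Ces1g was 1.97-fold higher (log2 fold 0.98 ± 0.19 SE, edgeR adjusted p = 0.00024) and Ces1d 1.29-fold higher (0.36 ± 0.10 SE, 0.00572), both with no overlap, which held for 13.7% of all genes. Ces1e was 2.78-fold lower (log2 fold -1.47 ± 0.14 SE, edgeR adjusted p = 4.45e-09), with no overlap, which held in this direction for 15.6% of all genes. Ces1a, Ces1b, Ces1c and Ces1f had log2 folds of 0.19, 0.05, 0.16 and 0.13 and did not pass (edgeR adjusted p from 0.658 to 0.925).

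**Figure D2:**
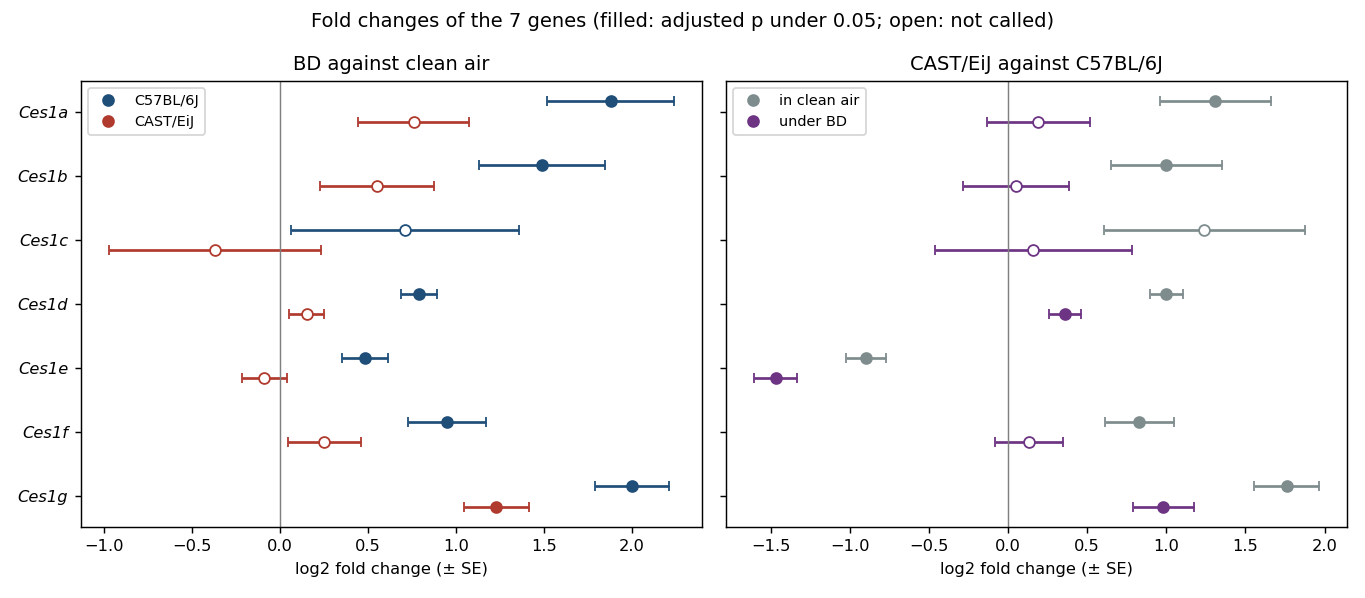
Log2 fold changes ± SE of the 7 genes (x axis) for BD against clean air in each strain (left) and for the strains, CAST/EiJ over C57BL/6J, without and with BD (right), filled where the edgeR adjusted p was under 0.05. Ces1g is filled in all 4 comparisons, and Ces1e lies at -0.90 and -1.47 on the right, opposite to Ces1d and Ces1g.

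Set in order of level, Ces1g was lowest in clean-air C57BL/6J (8.75 CPM), then clean-air CAST/EiJ (29.6 CPM) and C57BL/6J BD (35.2 CPM), whose ranges overlapped, and highest in CAST/EiJ BD (69.3 CPM). Ces1d followed another order, with clean-air C57BL/6J (664.6 CPM) below C57BL/6J BD (1147.4 CPM), and clean-air CAST/EiJ (1329.0 CPM) and CAST/EiJ BD (1476.1 CPM) above. The ranges of neighbours in that order overlapped except for the lowest pair. In Ces1e the order was CAST/EiJ BD, clean-air CAST/EiJ, clean-air C57BL/6J and C57BL/6J BD, and the CAST/EiJ groups overlapped each other, as did the C57BL/6J groups. For Ces1a, Ces1b and Ces1f clean-air C57BL/6J was lowest, with a range that overlapped that of clean-air CAST/EiJ, and the other 3 groups overlapped.

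Paralogs can share reads. How reads that match several genes were counted is not given in the sources used here, so every value of the cluster is uncertain. Transcripts were not compared with each other beyond the first 50 bases of 5 genes. No gene of the cluster was identical in every library to another entry of the table. After group means were taken off, Ces1a and Ces1b varied together over the 23 libraries with Pearson's r = 0.90 and Spearman's rho = 0.89 (r = 0.88 without the 2 libraries farthest from the median, and 0.95 without clean-air CAST/EiJ replicate 7). This is a description over libraries that share depth and composition. The next highest pairs were Ces1d with Ces1e (0.61), Ces1b with Ces1c (0.54) and Ces1e with Ces1f (0.52), and Ces1a with Ces1g was lowest (-0.46).

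The ratio of Ces1b to Ces1a counts was at least 1.30 in each of the 23 libraries, with a median of 1.49 and a highest value of 2.95. It spanned 1.43 to 1.66 in the C57BL/6J BD libraries and 1.32 to 1.49 in the CAST/EiJ BD libraries. The ratio of Ces1c to Ces1a was likewise at least 1.13 in each library (median 1.30), and reached 12.2 in a clean-air C57BL/6J library and 11.1 in a clean-air CAST/EiJ library. So no library held Ces1b or Ces1c below Ces1a. Reads shared between the copies and transcripts that vary together cannot be told apart from these counts. Summed over Ces1a, Ces1b and Ces1c, which is less open to how reads were split among them, C57BL/6J libraries averaged 13.5 ± 4.23 CPM (SD, n = 5) without BD and 31.8 ± 11.5 CPM (SD, n = 6) with it. CAST/EiJ libraries averaged 30.3 ± 27.4 CPM (SD, n = 7) without BD and 34.6 ± 11 CPM (SD, n = 5) with it. Clean-air replicate 7 held 90.2 CPM, and without it the clean-air mean was 20.4 ± 7.82 CPM (SD, n = 6).

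**Figure D3:**
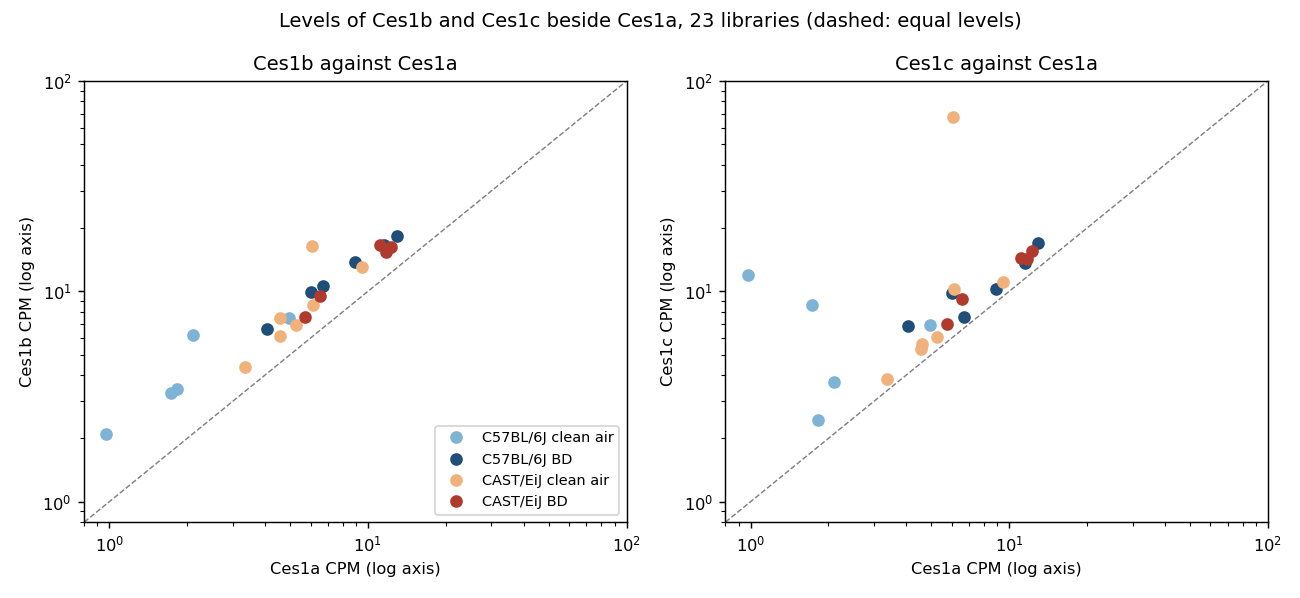
Ces1b (left) and Ces1c (right) against Ces1a in the 23 libraries, both axes in CPM on a log scale, coloured by group, with the dashed line at equal levels. Each point lies above the line, Ces1b follows Ces1a closely, and Ces1c has libraries far above it, up to 67.7 CPM.

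Ces1c was highest in the library with the highest hepatocyte marker level. In clean-air CAST/EiJ replicate 7 it stood at 67.7 CPM, against 3.83 to 11.1 CPM in the other 6 libraries of that group (7.04 ± 2.94, SD, n = 6). The same library held Alb, serum albumin, at 945.2 CPM against 1.48 to 93.0, and Apoa1, the main protein of high-density lipoprotein, at 111.6 CPM against 0.252 to 7.24. Ces3a, a liver carboxylesterase, stood at 54.5 CPM there against 0.135 to 3.04. The summed level of 14 hepatocyte markers (15 listed) was 3855.8 CPM in that library and 417.6 to 696.6 CPM in the other 6, with no marker at 0 in the whole group. Ces1b was also highest there, at 16.4 CPM against 4.38 to 13.1, whereas Ces1a, at 6.08 CPM, lay within 3.36 to 9.49. Among clean-air C57BL/6J libraries, the highest hepatocyte sum (1158.7 CPM, replicate 2) came with the highest Ces1c, 11.9 CPM. Among C57BL/6J BD libraries, the highest sum (898.3 CPM, replicate 6) came with the lowest Ces1c, 6.84 CPM. Alb was at most 87.5 CPM in that group, so most of this sum came from other markers of the list. Likewise, in clean-air CAST/EiJ the median sum was 471.3 CPM, whereas the median of Alb was 4.3 CPM. Sums at this level are therefore not read as an amount of hepatocytes, and whether lung cells express these markers was not tested.

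The strain difference of Ces1c in clean air did not pass (log2 fold 1.24 ± 0.64 SE, edgeR adjusted p = 0.0993). The BD comparison in CAST/EiJ gave a log2 fold of -0.37 ± 0.60 (SE; edgeR adjusted p = 0.732), which was 0.80 without replicate 7 (0.128). In fits with the mean hepatocyte marker level as a term, added after the data had been seen, Ces1c was higher under BD in C57BL/6J (log2 fold 1.34, edgeR adjusted p = 0.0141) and higher in CAST/EiJ than in C57BL/6J in clean air (1.15, 0.0039).

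**Figure D4:**
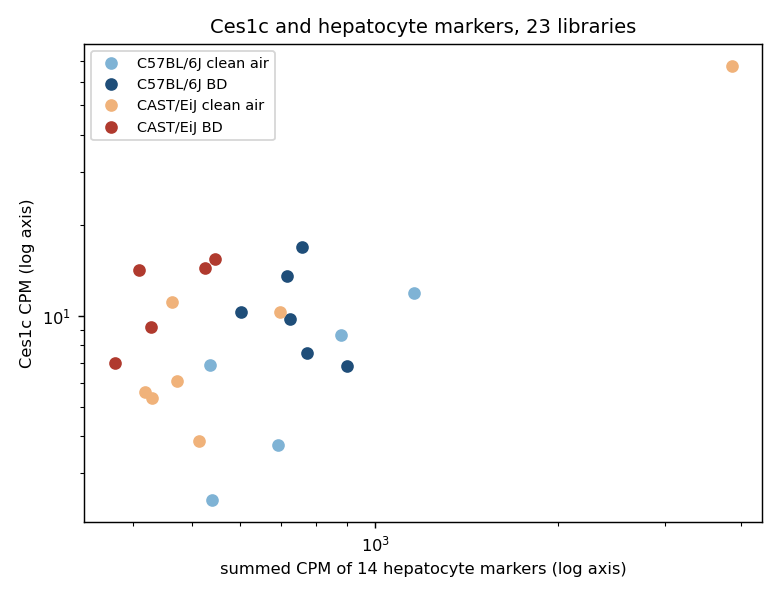
Ces1c level (y axis, CPM) against the summed CPM of 14 hepatocyte markers (x axis) in the 23 libraries, both on log axes, coloured by group. Clean-air CAST/EiJ replicate 7 stands alone at 3855.8 summed CPM and 67.7 CPM of Ces1c.

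The genes whose log2 CPM followed each member most closely over the 23 libraries, among genes that averaged 1 CPM or more, were ranked by Pearson's r as a description. For Ces1d they were Akr1c14 (0.975), Cldn12 (0.955) and Ugt1a6a (0.944). For Ces1g they were Ikbkg (0.947), the glutathione S-transferase Gsta3 (0.930) and Abcb6 (0.929). For Ces1e they were Stk33 (0.959), the aldehyde oxidase Aox3 (0.957) and Rnf215 (0.957). Ces1f was followed by Stard7 (0.827), Aldh3a1 (0.813) and Aldoa (0.809), and Ces1a and Ces1b shared Tbc1d22a (0.845 and 0.789) and Rab3d (0.813 and 0.751) among their closest 3. For Ces1c they were Cyp2d10 (0.787), the nuclear receptor Nr1i3 (0.785) and tyrosine aminotransferase Tat (0.772). These r include the differences between the 4 groups. After group means were taken off, r was 0.907 for Slc25a47, 0.890 for Cyp2c29 and 0.883 for Cyp2d10 with Ces1c, and 0.910 for Stard7 with Ces1f. Cldn12 (0.903) was then closest to Ces1d. For Ces1g and Ces1e the closest 3 were all replaced, by Prrg1 (0.758), Mettl20 (0.755) and Lin7a (0.720), and by Tmem212 (0.863), Lrrc48 (0.839) and Ahsa1 (0.798). Ces1a and Ces1b then shared Leprel1 (0.739 and 0.793) in place of Tbc1d22a and Rab3d. These values include clean-air CAST/EiJ replicate 7, where Ces1c and liver genes stood high, and were not computed without it.

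Genes of related function gave the setting of the cluster. Of 12 other carboxylesterases listed, 11 were measured and 7 passed the filter on low counts. Under BD in C57BL/6J, where 4.20% of all genes rose, 1 of 7 rose, Ces2e (log2 fold 0.64, edgeR adjusted p = 0.0121), with a list median of 0.11. In CAST/EiJ the log2 fold of Ces2e was -0.26 (edgeR adjusted p = 0.216), and the difference between strains passed (-0.90, 0.0179), as for 9.44% of all genes. That difference was not examined with libraries numbered over 100 left out, where 1.8% of all genes passed. In clean air 4 of 7 were higher in CAST/EiJ, where 29.4% of all genes were, with Ces2b at a log2 fold of 3.20, Ces2e at 2.82, Ces2c at 1.22 and Ces2g at 1.07. The same 4 genes were higher in CAST/EiJ under BD, where 20.4% of all genes were, with log2 folds of 2.65, 1.91, 0.78 and 1.16.

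Of 40 targets of NRF2, the transcription factor of the antioxidant response, 28 rose under BD in C57BL/6J and 18 in CAST/EiJ, with medians of 0.43 and 0.30. Of all genes, 4.20% and 3.86% rose. Srxn1 (log2 fold 1.54) and Gclc (1.5) had the highest folds in C57BL/6J, and Slc7a11 (2.19) and Gclc (1.66) in CAST/EiJ. Nqo1 had log2 folds of 1.44 and 0.85, and its difference between strains passed (-0.59, edgeR adjusted p = 0.0368). Of 20 listed targets of the xenobiotic receptors CAR and PXR, 3 rose in C57BL/6J and 17 did not pass (median 0.20). The 3 were Cyp1a1 (2.97), which is also a target of the aryl hydrocarbon receptor, Aldh1a1 (0.74) and Cyp2b10 (0.55). In CAST/EiJ 1 of the 20 fell, Sult1d1 (-2.42), where 3.37% of all genes fell. Cyp2b10 had a log2 fold of -0.02 there (edgeR adjusted p = 0.954).

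Of 31 other esterases and lipid hydrolases tested, Lpl (log2 fold 0.62) and Esd (0.38) rose in C57BL/6J, with a median of 0.06, where 10.7% of all genes changed. In CAST/EiJ Ddhd1 (0.57) and Esd (0.31) rose and 3 fell, among them the butyrylcholinesterase gene Bche (-0.99) and Notum (-0.45), with a median of -0.04, where 7.22% of all genes changed. Angptl4, a target of PPAR receptors, the regulators of lipid use, rose in C57BL/6J (1.31). Of 10 genes that retain or fold proteins in the endoplasmic reticulum, P4hb (0.26) rose in C57BL/6J, where 4.20% of all genes rose.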

How the data were processed

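The authors deposited RNA-seq read counts for each gene symbol. GSNAP and the mouse build mm9 are named in the submitters' processing notes. The GSNAP version, the counting tool, its annotation, its use of strand and its treatment of reads that match several genes are not given in the sources used here. Of 23893 entries, 23872 with a value in every library were used; 20 small RNA and 24 chromatin samples were not analysed here.

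A single model with 1 mean per group was fitted to 23 libraries with edgeR 4.0.16 in R 4.3.3 (filterByExpr, TMM scaling, robust quasi-likelihood F test, Benjamini-Hochberg adjustment over 17377 genes per comparison, called under an adjusted p of 0.05). CPM are counts per 1e+06 of the TMM-scaled library, and correlations used log2 CPM with a prior count of 2. Tried beside it were no filter, median-of-ratios factors, the compared groups alone, DESeq2 1.42.0, limma-voom (limma 3.58.1), library 8 kept in, libraries numbered over 100 left out or as a covariate, and each library left out. Hepatocyte and adipocyte marker covariates were added after the data had been seen. On simulated counts for BD in C57BL/6J (17227 genes tested) the test recovered 56.7%, 82.1% and 93.9% of genes changed 1.5-, 2- and 4-fold, with 8 false among 163 calls.

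All 7 members were described. From each list of related genes, at most the 2 called genes with the highest and the 2 with the lowest folds were named, plus Gusb, Nqo1, Gclc and Cyp2b10 and every called carboxylesterase, and for each member the 3 genes of most similar level. The members and lists were chosen with earlier results of these data known, the lists from general knowledge, and the count of 1 list, the PPAR targets, is not reported here. Symbols were matched to RefSeq tables of GRCm38.p6 for gene order and sequences alone, since that build differs from mm9; start regions were aligned pairwise with Biopython 1.88.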

Additional observations from a re-analysis of the deposited data

Results flagged for a closer look

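In 28 groups of member values (7 genes in 4 groups), 3 held a library set apart from the rest by more than chance usually gives, and chance would mark 1 in 20 such groups, or 1.4. Ces1c stood at 67.7 CPM in clean-air CAST/EiJ replicate 7, with the next library at 11.1 CPM. Ces1g stood at 51.3 CPM in C57BL/6J BD replicate 6, with the next at 36.2 CPM. Ces1a stood at 4.96 CPM in clean-air C57BL/6J replicate 3, with the next at 2.10 CPM. The BD response of Ces1d differed between the strains, with a log2 ratio of -0.64 of the CAST/EiJ fold to the C57BL/6J fold (edgeR adjusted p = 0.0157).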

How the results depend on the processing

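Each of the 35 results (7 genes in 5 comparisons) was recomputed under up to 33 settings, 23 of which left out 1 library. Of 1148 values 1114 kept their direction and their side of the threshold, 8 lost a call, 13 gained one and 13 changed sign, none of the last called. In the comparison of BD responses between strains, 1 gene was called (9.44% of all genes), against 2 with median-of-ratios factors (9.42%), 3 with DESeq2 (14.4%) and 2 with library 8 (11.7%). The count was 0 with libraries numbered over 100 left out (1.8%) or as a covariate (0.483%); at an unadjusted p under 0.05 it was 5 in each, where 20% and 18.7% of all genes passed. It was 1 to 3 when single libraries were left out: 3 without clean-air CAST/EiJ replicate 6 (18.6% of all genes) and 2 without CAST/EiJ BD replicate 3 (11.4%), C57BL/6J BD replicate 1 (10.1%) or clean-air C57BL/6J replicate 1 (19.4%). The share of all genes called thus moved with these settings too. Beside Ces1d, the genes added were Ces1e and Ces1g. Ces1g passed with library 8 (-0.85, edgeR adjusted p = 0.0473) and DESeq2 (0.0332), and without clean-air CAST/EiJ replicate 6 (edgeR, 0.0325).

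The sign changes were in Ces1c, Ces1e and Ces1b. Ces1c under BD in CAST/EiJ had a log2 fold of 0.48 with voom, 0.14 with the hepatocyte covariate and 0.80 without clean-air CAST/EiJ replicate 7. It stood at -0.04 between strains under BD with that covariate. With single libraries left out its BD fold in CAST/EiJ ranged from -0.53 to 0.80, and its strain ratio from -1.39 to 0.07, both upper ends without that replicate. Its clean-air strain difference passed without libraries numbered over 100 (2.40, edgeR adjusted p = 0.00602), where replicate 7 is 1 of 2 CAST/EiJ libraries, and with the number series as covariate (1.77, 0.00464). Ces1e under BD in CAST/EiJ was 0.15 with library 8 and 0.01 with the number series as covariate. Ces1b between strains under BD was -0.05 with the adipocyte covariate and ranged from -0.08 to 0.19 with single libraries left out, below 0 in 5 of these (-0.08, -0.05, -0.03, -0.01 and -0.01). The cause of these changes was not tested. No paired analysis was possible because library numbers are not shared between groups. Counts were lowest in Ces1a (13 to 603 in a library), and went down to 28 in Ces1b, 49 in Ces1c, 71 in Ces1g and 82 in Ces1e. The SE of Ces1c was nevertheless wider than that of Ces1g or Ces1e, at 0.65 against 0.21 and 0.13 for BD in C57BL/6J. The reason for this was not tested. Transcript lengths were not at hand to compare levels between genes.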
